A study of Homo sapiens with 2 samples.

Results

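HOX genes were followed through all 4 human clusters, HOXA on chromosome 7, HOXB on chromosome 17, HOXC on chromosome 12 and HOXD on chromosome 2. The set was fixed by gene name, and each of its 38 genes was looked up by its NCBI gene number among the 18518 genes listed in either of the 2 libraries. RNA was sequenced from a human embryonic stem cell line, H1, with 1 library of wild-type cells and 1 of cells labelled MEIS1-/-. Cells of both libraries were given 40 ng/ml activin A with 50 ng/ml BMP4 for 2 days, then 40 ng/ml VEGF with 50 ng/ml bFGF, and were taken at day 3 on the way to blood. The labels did not give the deleted part of MEIS1, the number of clones or the number of cultures. With 1 library per genotype no test between genotypes was possible, so each difference is between these libraries, and each interval given is a 95% interval for counting error only.

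HOX genes encode homeodomain transcription factors that give cells their position along the body axis. Genes of a cluster lie in the order of their paralogue numbers, and low numbers are switched on earlier and farther forward than high ones. HOX proteins bind DNA together with TALE proteins, the PBX and MEIS factors. HOXA9 with MEIS1 is known from blood progenitors and from leukaemia, and HOXB4 from the expansion of blood stem cells.

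The wild-type library held 5202877 rounded counts and the MEIS1-/- labelled library 5296431. MEIS1 had 89 and 68 counts in them, a ratio of 0.759 (0.543 to 1.05), and the files did not show which part of the gene the reads came from. The label of the deleted library could therefore not be checked on MEIS1, and directions below are those of the MEIS1-/- labelled library. Markers of haemato-endothelial cells, towards which the protocol leads, were present in both libraries, with 0 of 10 markers at 0 counts in either.

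Among the HOX clusters, the libraries differed most by ratio in HOXC, with 12 and 120 counts. In number of counts they differed most in HOXB, with 1862 and 2340. HOXC4, HOXC6 and HOXC8 were near 0 in wild type and clearly counted in the MEIS1-/- labelled library, while HOXC9 to HOXC13 were near 0 in both. HOXA9 was about 3-fold higher, HOXB4, HOXB8 and HOXB9 were higher by less than 2-fold, and HOXB2 and HOXB6, both abundant, differed little. HOXD genes were scarce in both. Over all members the summed count was 2033 in wild type and 2716 in the MEIS1-/- labelled library, a ratio of 1.32 (1.25 to 1.40).

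Of the 38 genes, 5 (HOXA2, HOXB1, HOXC11, HOXC12 and HOXD12) were listed in neither library, 16 were listed with fewer than 10 counts in each, and 17 had at least 10 counts in 1 library or more and were compared one by one. Ratios were taken after TMM scaling with a pseudocount of 1 on the count, and a gene counted as higher if its interval lay above a ratio of 1 and as lower if below. By that rule 9 of the 17 were higher and 0 lower, and for 8 the interval held 1. Over all 14381 genes compared by the same rule, 15.4% were called higher and 14.7% lower. At least 1.5-fold higher with such an interval were 7 of the 17, against 5.75% of all genes compared, and 0 were as much lower, against 6.21%. At least 2-fold higher were 5, against 2.90% of all genes compared, and 0 were as much lower, against 2.95%. HOXC4, HOXC6 and HOXC8 reached 10 counts in the MEIS1-/- labelled library alone and HOXD13 in wild type alone, so for these 4 the minimum itself required a difference. The compared HOX genes had a median summed count of 113, lower than the 277 of all compared genes, and a median log2 ratio of 0.52 against 0.0032.

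**Figure D1:**
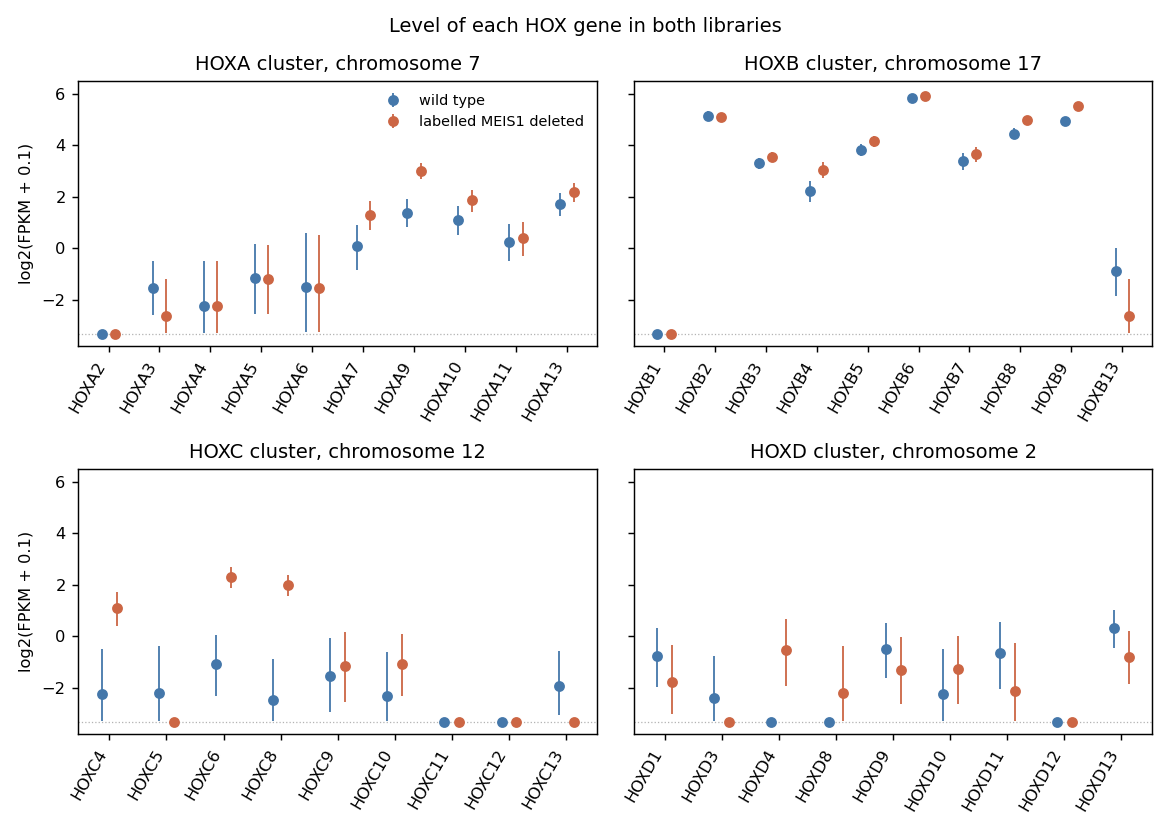
Level of each of the 38 HOX genes as log2(FPKM + 0.1), by cluster and in order of paralogue number, in wild type (blue) and the MEIS1-/- labelled library (orange). Bars are 95% Poisson intervals for the count. Points on the dotted line are genes not listed, drawn without a bar although they too carry counting error. HOXB2 to HOXB9 stand highest in both libraries, and HOXC4, HOXC6 and HOXC8 are separated between them.

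Per transcript length, HOXB genes held most of the HOX signal. The deposited FPKM values of the 10 HOXB genes summed to 182.5 in wild type and 219.8 in the MEIS1-/- labelled library, or 92.5% and 86.7% of the FPKM of all 38. HOXA genes held 5.41% and 7.93%, HOXC genes 0.598% and 4.52%, and HOXD genes 1.51% and 0.836%. The share of HOXC was thus larger and that of HOXB smaller, although HOXB counts were themselves higher. By counts the HOXC share was 0.590% (exact binomial interval 0.305 to 1.03) in wild type and 4.42% (3.68 to 5.26) in the MEIS1-/- labelled library, and these intervals did not overlap.

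The order of FPKM levels in wild type was HOXB6, HOXB2, HOXB9, HOXB8, HOXB5, HOXB7, HOXB3 and HOXB4, from 56.0 down to 4.54. In wild type the Poisson intervals of HOXB2 (31.2 to 39.4) and HOXB9 (27.8 to 33.7) overlapped, as did those of HOXB7 (8.09 to 12.98) and HOXB3 (8.37 to 11.2). In the MEIS1-/- labelled library HOXB9 stood above HOXB2, with 45.7 (42.3 to 49.3) against 34.0 FPKM (30.2 to 38.2), and HOXB6 remained first at 59.3. After the HOXB genes came HOXA13 at 3.14, HOXA9 at 2.50 and HOXA10 at 2.03 FPKM in wild type. In the MEIS1-/- labelled library the same places were taken by HOXA9 at 7.85, HOXC6 at 4.82, HOXA13 at 4.44 and HOXC8 at 3.88 FPKM, where the intervals of HOXC6 (3.55 to 6.39), HOXA13 (3.38 to 5.73) and HOXC8 (2.85 to 5.16) overlapped.

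HOXC genes pattern the neck and trunk. HOXC8 (gene 3224 in the files), a gene of the thoracic level, had 1 count in wild type and 47 in the MEIS1-/- labelled library. Its log2 ratio was 4.57 (2.99 to 10.87), or 23.8-fold with the pseudocount and 46.5-fold without it. HOXC6, a gene of the upper trunk, had 4 and 48 counts, 9.70-fold higher (4.35 to 45.4). HOXC4, the HOXC gene of the lowest paralogue number, had 1 and 18 counts, 9.40-fold higher (2.81 to 742). The wide upper limits came from the low wild-type counts, and the lower limits were all above 2.8-fold. Ranked among the 14381 genes compared, the ratios of HOXC8, HOXC6 and HOXC4 were at places 9, 42 and 44 from the top. Of all genes compared, 0.772% were at least 4-fold higher with an interval above 1. These HOXC genes reached 10 counts in the MEIS1-/- labelled library alone. The minimum itself thus required a difference, and their places are descriptions only. From FPKM with a pseudocount of 1, which weighs heavily at these levels, their log2 ratios were 2.18, 2.09 and 1.45.

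Within HOXC, the difference was seen in the sum over HOXC4 to HOXC8 and not in the sum over HOXC9 to HOXC13. Counts summed over HOXC4, HOXC5, HOXC6 and HOXC8 were 7 and 113, a log2 ratio of 3.82 (2.91 to 5.35). Summed over HOXC9 to HOXC13 they were 5 and 7, a log2 ratio of 0.40 (-1.40 to 2.47), and the intervals of the groups did not overlap. HOXC9 had 2 and 3 counts and HOXC10 1 and 4, too few to place where the difference ends. HOXC5, which lies between HOXC4 and HOXC6, had 1 and 0 counts, too few to say whether the difference extended to it. At this depth 0 counts allow up to 3, an upper 95% limit taken on 1 side, unlike the intervals given here. The deposited length of HOXC6, which is weighted over 2 transcripts by the authors, was 2072 bases in wild type and 1892 in the MEIS1-/- labelled library, though the first rested on 4 counts.

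**Figure D2:**
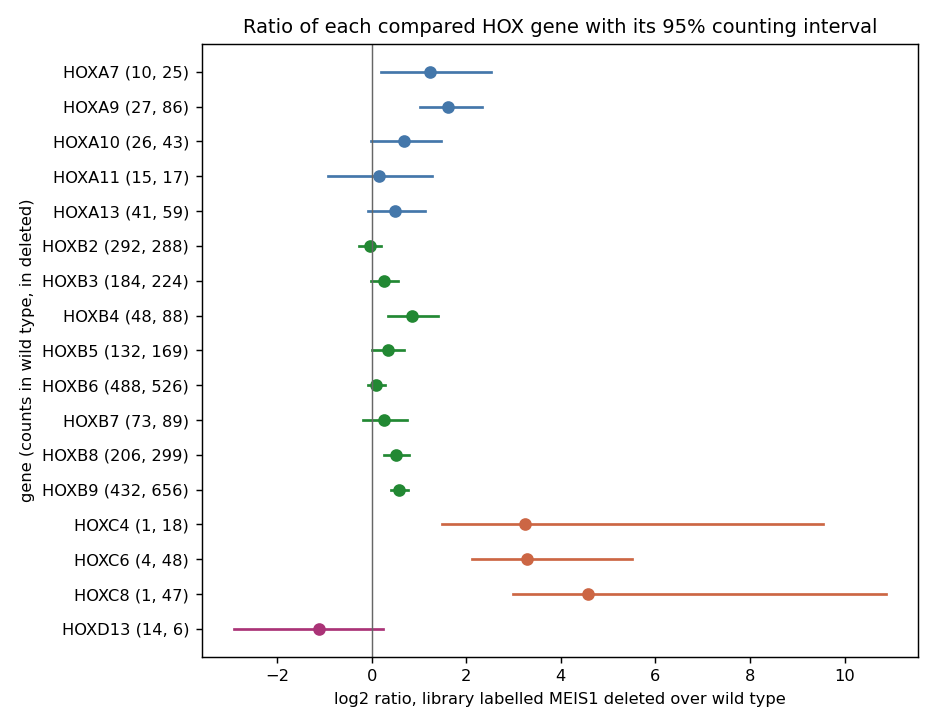
Log2 ratio of each of the 17 compared HOX genes, MEIS1-/- labelled over wild type, with its 95% counting interval as a line; the counts in each library stand beside the name. HOXC4, HOXC6 and HOXC8 lie farthest to the right, HOXB genes lie between -0.03 and 0.85, and HOXD13 and HOXB2 lie left of 0.

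Most HOXA counts came from HOXA7 to HOXA13. HOXA9 (gene 3205 in the files), the blood progenitor and leukaemia gene, had 27 counts (2.50 FPKM) in wild type and 86 (7.85 FPKM) in the MEIS1-/- labelled library. It was 3.08-fold higher (2.03 to 5.05). HOXA7, its neighbour on the low-number side, had 10 and 25 counts, 2.34-fold higher (1.15 to 5.77). HOXA10, which is also active in blood progenitors, had 26 and 43 counts, a ratio of 1.61 (0.983 to 2.77). HOXA13, known for limb and genital development, had 41 and 59 counts, a ratio of 1.41 (0.940 to 2.18), and HOXA11 15 and 17 counts, 1.11 (0.527 to 2.41). The last 3 intervals included 1. HOXA3, HOXA4, HOXA5 and HOXA6 had 1 to 4 counts in each library. Counts over HOXA2 to HOXA6 summed to 9 and 6, and those over HOXA7 to HOXA13 to 119 and 230, a ratio of 1.91 (1.53 to 2.41). The ratio of the lower group was 0.693 (0.193 to 2.08), and the intervals overlapped, so these groups were not separated. This split was not the planned one. In the planned groups HOXA4 to HOXA7 summed to 15 and 30 counts, a ratio of 1.92 (1.03 to 3.96). HOXA9 to HOXA13 summed to 109 and 205, a similar ratio of 1.85 (1.47 to 2.37).

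Some HOXA9 reads fit more than 1 gene. Its expected count in wild type was 26.9, and the readthrough transcript HOXA10-HOXA9 held 0.12. HOXA9, HOXA10 and the readthrough together had 53 and 129 counts and were 2.38-fold higher (1.74 to 3.38), so the difference was also seen in the sum of these genes.

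HOXA9 is the only compared HOX gene at least 2-fold higher with over 10 counts in both libraries, since HOXA7 had 10 in wild type. The HOXA9 start region is shown for that reason. The RefSeq promoter table (GRCh38.p14, a build other than the hg19 of the files) held windows for 20 of the 38 genes, from 250 bases before the start to 50 after it. Capitals mark the match to TTTATG, the core of sites bound by CDX factors, here read on the other strand as CATAAA, in the 250 bases before the HOXA9 start (chr7:27165538-27165787, minus strand).

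HOXA9: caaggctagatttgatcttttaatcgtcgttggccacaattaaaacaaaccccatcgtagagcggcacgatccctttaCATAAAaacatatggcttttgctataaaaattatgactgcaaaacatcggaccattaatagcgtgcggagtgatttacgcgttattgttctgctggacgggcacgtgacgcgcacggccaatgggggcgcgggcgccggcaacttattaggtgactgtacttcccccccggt

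TTTATG in either strand was found in 3 of the 20 windows (HOXA3, HOXA9 and HOXD8), against 11% of 27305 promoters. The MEIS core TGACAG was found in 4 (HOXA2, HOXA4, HOXA13 and HOXD4), against 15.9%. The composite HOX and PBX motif TGATNNAT was found in 3 (HOXA2, HOXB1 and HOXD11), against 7.6%. No MEIS core lay in the HOXA9 window, which says only that these letters are not in those bases. A match is a description of the sequence and not a site shown to be bound.

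Noncoding transcripts of the HOXA cluster are given because they lie among these genes, and they were chosen after their values were seen. HOXA-AS3, antisense across the HOXA5 to HOXA7 region, had 7 and 31 counts, 3.96-fold higher (1.89 to 11.8). HOXA10-AS had 7 and 27 counts, 3.46-fold higher (1.62 to 10.4). At the other end HOTAIRM1 had 17 and 5 counts, 3.03-fold lower (1.22 to 11.9). HOXA-AS3 and HOXA10-AS reached 10 counts in the MEIS1-/- labelled library alone and HOTAIRM1 in wild type alone, so for these too the minimum itself required a difference. The labels did not state whether reads kept their strand, so reads of a gene and of its antisense partner could not be told apart.

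**Figure D3:**
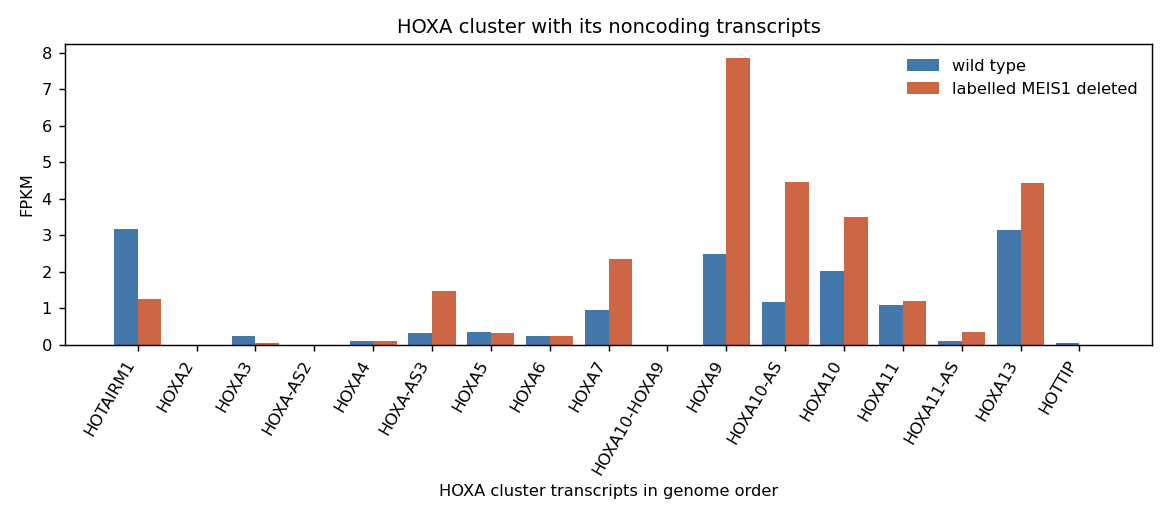
FPKM of HOXA genes and noncoding transcripts of the cluster in genome order, in wild type (blue) and the MEIS1-/- labelled library (orange), 1 library each. HOTAIRM1 is lower in the MEIS1-/- labelled library, and HOXA7, HOXA9 and HOXA10-AS are higher.

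HOXB genes gave the most precise values. HOXB9, the last gene before the gap to HOXB13, had 432 and 656 counts, 1.502-fold higher (1.33 to 1.70). HOXB8 had 206 and 299 counts, 1.43-fold higher (1.20 to 1.72). HOXB4, the gene used to expand blood stem cells, had 48 and 88 counts, 1.80-fold higher (1.26 to 2.64). HOXB5 had 132 and 169 counts, 1.27-fold higher, with an interval that only just excluded 1 (1.003 to 1.60). Scaling by the total count left 8 genes called higher in place of 9, because HOXB5 was lost, and it put HOXB9 under 1.5-fold.

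The other 4 compared HOXB genes had intervals that included 1. HOXB6, the most abundant HOX gene, had 488 and 526 counts, a ratio of 1.07 (0.941 to 1.21). HOXB2, which acts in the hindbrain, had 292 and 288 counts, a ratio of 0.976 (0.827 to 1.15). HOXB3 had 184 and 224 counts, 1.20 (0.987 to 1.47), and HOXB7 73 and 89 counts, 1.20 (0.876 to 1.67). HOXB6 and HOXB7 shared reads, since their expected counts in wild type were not whole but summed to 561. Together they had 561 and 615 counts, a ratio of 1.08 (0.966 to 1.22). HOXB3 likewise shared reads with its paralogue HOXD3, and both summed to 185 and 224.

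By position in the cluster, HOXB counts differed more at the high numbers. HOXB1 to HOXB3 summed to 476 and 512 counts, a ratio of 1.06 (0.938 to 1.21). HOXB4 to HOXB8 summed to 947 and 1171, a ratio of 1.22 (1.12 to 1.33). HOXB9 with HOXB13 summed to 439 and 657, a ratio of 1.48 (1.31 to 1.68). The interval of the last group lay above that of the first and overlapped that of the middle group. The order was not even from gene to gene, since HOXB4 had the largest ratio of the cluster, and the last group was nearly all HOXB9. HOXB13 itself had 7 and 1 counts.

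**Figure D4:**
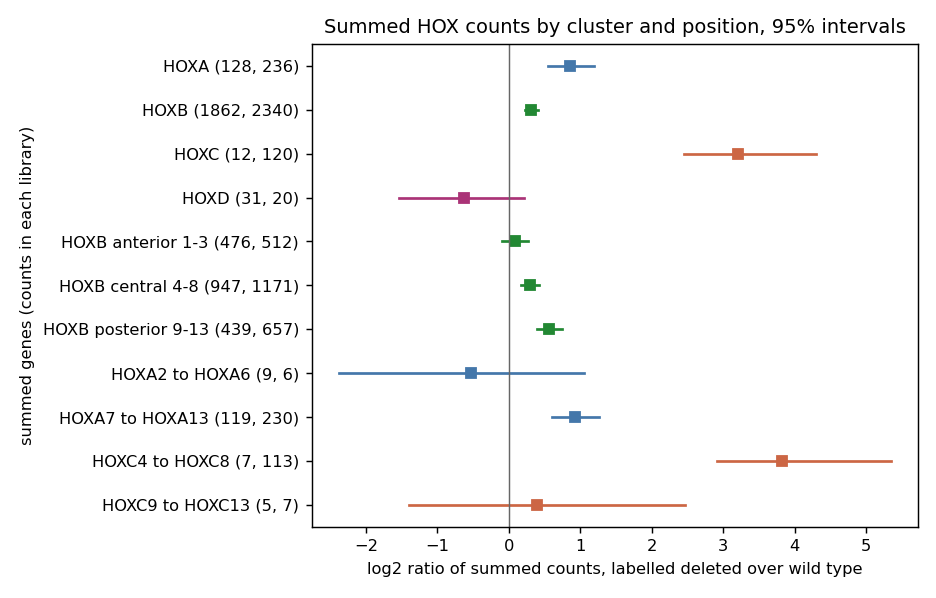
Log2 ratio of summed counts, MEIS1-/- labelled over wild type, for each cluster and for parts of HOXA, HOXB and HOXC, with 95% counting intervals as lines and the summed counts beside each name. The HOXC4 to HOXC8 sum lies at 3.82, apart from HOXC9 to HOXC13 at 0.40, and the 3 parts of HOXB lie at 0.09, 0.29 and 0.57.

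HOXD genes were scarce. HOXD13, a limb and genital gene, had 14 and 6 counts, a ratio of 0.462 (0.134 to 1.18). The others had 0 to 6 counts in each library. The whole cluster summed to 31 and 20 counts, a log2 ratio of -0.62 (-1.54 to 0.21), and the interval included no difference. HOXC and HOXD differed in their ratios, since the HOXC log2 ratio of 3.20 (2.45 to 4.30) lay wholly above that of HOXD. The HOXA sum of 128 and 236 counts gave 0.86 (0.55 to 1.19) and the HOXB sum of 1862 and 2340 gave 0.31 (0.23 to 0.40), and these intervals did not overlap either. The HOXA value was 0.55 without HOXA9. Without genes of shared reads HOXA was at 0.49 (0.06 to 0.94) and HOXB at 0.41 (0.30 to 0.52). These intervals overlapped, so HOXA and HOXB were then not separated. For HOXA this left out HOXA9 and HOXA10 whole, which with their readthrough held 53 and 129 counts.

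Across clusters, paralogue numbers 4 and 8 to 10 had the highest ratios. Paralogue 4 genes summed to 50 and 111 counts, 2.17-fold higher (1.56 to 3.13), with HOXB4 giving most of the counts and HOXC4 most of the remaining difference. Paralogue 8 genes summed to 207 and 347, 1.66-fold higher (1.39 to 1.98), and paralogue 9 genes to 467 and 748, 1.58-fold higher (1.41 to 1.78). Paralogue 10 genes summed to 28 and 50, 1.74-fold higher (1.09 to 2.92). Paralogue 6 and 7 genes were 1.15-fold (1.02 to 1.30) and 1.36-fold (1.02 to 1.83) higher. Single HOXB genes of these numbers had intervals that included 1, HOXB6 at 1.07 (0.941 to 1.21) and HOXB7 at 1.20 (0.876 to 1.67). HOXC6, with 4 and 48 counts, is in the sum of paralogue 6, and HOXC8, with 1 and 47, in that of paralogue 8. HOXB8 alone had a ratio of 1.43 (1.20 to 1.72). The HOXC difference was thus part of the sums of paralogues 4, 6 and 8. The sums for paralogues 1, 2, 3, 5, 11 and 13 had intervals that included 1, and both genes of paralogue 12 were listed in neither library. Grouped along the axis, paralogues 1 to 3 had a ratio of 1.05 (0.925 to 1.19), 4 to 8 a ratio of 1.35 (1.24 to 1.47) and 9 to 13 a ratio of 1.51 (1.36 to 1.68). Without genes of shared reads, among them HOXB6, the log2 ratio of paralogues 4 to 8 was 0.77 in place of 0.43. That of paralogues 9 to 13 was then 0.50 in place of 0.59, and that of 1 to 3 was -0.06 in place of 0.07. Paralogues 4 to 8 then stood above 9 to 13, but these values are given without intervals. Leaving out HOXB6 took a gene of 488 and 526 counts from the sum over 4 to 8. The intervals of 4 to 8 and 9 to 13 with all genes overlapped, so no order between these groups was set.

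The 16 genes listed with fewer than 10 counts in each library had 0 to 7 counts and at most 0.61 FPKM. Among them 5 had more counts in the MEIS1-/- labelled library, 8 fewer and 3 the same number. They summed to 39 counts in wild type and 28 in the MEIS1-/- labelled library.

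**Figure D5:**
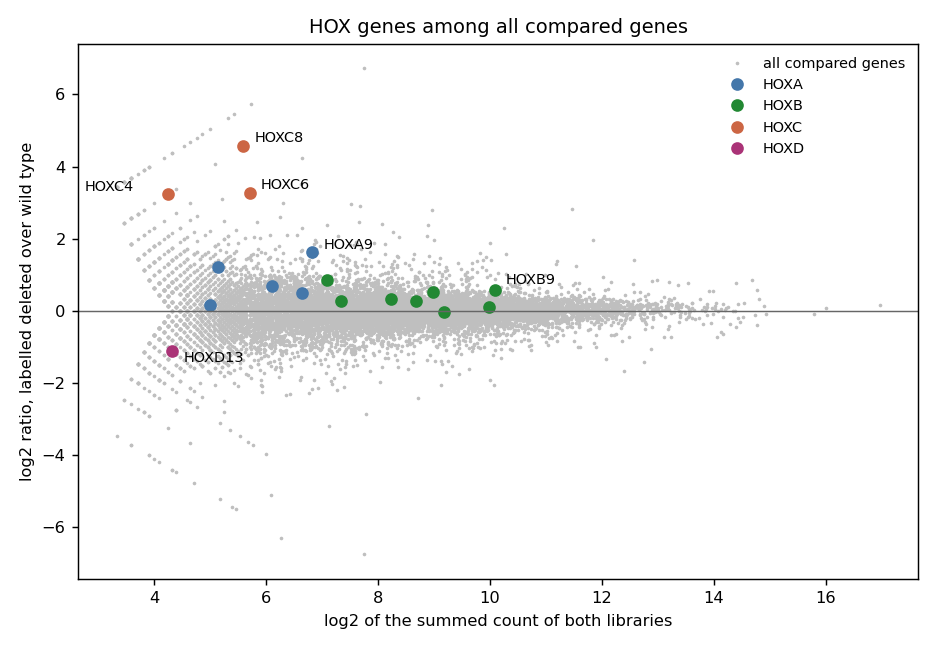
Log2 ratio against the log2 of the summed count for all 14381 compared genes (grey) and the 17 compared HOX genes (coloured by cluster). HOXC8, HOXC6 and HOXC4 lie among the highest points, at 4.57, 3.28 and 3.23, and HOXB genes lie between -0.03 and 0.85.

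Lists of partners and regulators of HOX genes are read against all genes compared, of which 15.4% were called higher and 14.7% lower. Of 9 TALE genes, 8 were compared, with 1 higher, 2 lower and 5 intervals that included 1, and a median log2 ratio of -0.093, counts too few to set apart from those shares. MEIS2 had 136 and 290 counts, 2.10-fold higher (1.72 to 2.61), MEIS3 was lower at a ratio of 0.696 (0.577 to 0.836) and PBX2 at 0.893 (0.827 to 0.965). CDX2, a homeobox factor that activates HOX genes of the trunk, had 120 and 169 counts, 1.39-fold higher (1.10 to 1.78). Of 6 CDX and ParaHox genes only CDX1 and CDX2 could be compared, and the interval of CDX1, on 7 and 16 counts, included 1.

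Of 17 retinoic acid genes, 13 were compared, with 1 higher, 6 lower and 6 that included 1, and a median of -0.36, where 15.4% of all genes compared were higher and 14.7% lower. Retinoic acid activates HOX genes of low paralogue number. CYP26A1, which degrades retinoic acid, had 593 and 196 counts, 3.05-fold lower (2.60 to 3.61), and CRABP2, which binds it in the cell, had 962 and 543 and a ratio of 0.559 (0.502 to 0.621). ALDH1A3, which makes retinoic acid, had a ratio of 0.632 (0.445 to 0.879) and the receptor gene RARA 0.736 (0.549 to 0.978). The 1 higher gene was ALDH1A1, another enzyme that makes retinoic acid, named after its values were seen. It had 1 and 11 counts, 5.94-fold higher (1.58 to 469), and reached 10 counts in the MEIS1-/- labelled library alone. Of 9 genes of the WNT, GDF and T-box inputs to posterior identity, 6 were compared, with 0 higher, 4 lower and 2 that included 1, and a median of -0.84. TBXT, SP5, WNT3 and WNT5A had ratios of 0.377, 0.462, 0.471 and 0.665, each with an interval below 1. Of 9 EVX, MNX and DLX homeobox genes, a list not limited to neighbours of HOX clusters, 5 were compared. Of these 0 were higher, 3 were lower and 2 had intervals that included 1. EVX1, which lies beyond HOXA13, had 148 and 70 counts and a ratio of 0.472 (0.347 to 0.626), the opposite direction to HOXA9, and DLX2 a ratio of 0.512 (0.310 to 0.801). Of 26 noncoding, readthrough and microRNA genes of the clusters, 15 had no count in either library and 6 were compared, with 2 higher, 1 lower and 3 that included 1, the 3 called being the HOXA transcripts above that the minimum required to differ. HOXB-AS3, the most abundant of them, had 131 and 123 counts, a ratio of 0.930 (0.721 to 1.20).

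Markers of cell types differed between the libraries beside the HOX genes. In bulk RNA more cells of a type and more RNA per cell cannot be told apart. The marker counts stand beside the same 15.4% higher and 14.7% lower of all genes compared, and lists with 2 compared genes are too small to read against them. Of haemato-endothelial markers 10 of 10 were higher, with a summed level of 227 FPKM in wild type and 350 in the MEIS1-/- labelled library. Of lateral plate mesoderm markers 4 of 7 compared were higher and 1 lower (448 and 502 FPKM). Of primitive streak markers 5 of 5 compared were lower (128 and 34.0 FPKM) with MSGN1 at 0 in both, and of pluripotency markers 3 of 5 were lower (312 and 213 FPKM). Definitive endoderm markers had 3 of 6 lower (152.9 and 100.3 FPKM), and amnion-like markers had 2 of 6 higher and 3 lower (87.9 and 66.2 FPKM). Paraxial mesoderm markers had 1 of 2 lower (3.90 and 2.74 FPKM) with MEOX1, TCF15 and UNCX at 0 in both. Neural markers had 1 of 2 lower (20.8 and 8.96 FPKM) with SOX1, HES5 and NEUROG2 at 0 in both. The part of these markers in the HOX differences was not tested.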

How the data were processed

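Each library had 1 table of genes by NCBI number. The expected counts, which are estimated counts, were deposited by the authors unscaled, and the deposited FPKM values are scaled for length and depth. RSEM, Bowtie, BWA and hg19 are named, without versions or order, in the submitters' processing notes; the strand setting is not given in the sources used here. Lengths were deposited as other values, in bases.

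Gene numbers were matched to symbols through RefSeq (18413 of 18518). Genes absent from a table were taken as 0. Expected counts were rounded and scaled with TMM (edgeR 4.0.16 in R 4.3.3, factor 1.01); DESeq2 1.42.0 gave an alternative factor. Ratios used a pseudocount of 1, and Clopper-Pearson 95% intervals used the counts without it. Genes with 10 counts in 1 library or more were compared. PCR copies are not independent molecules, so intervals and the floor of 3 counts cover counting error only. Members with 10 counts or more were all named, and up to 4 genes of each other list with 50 counts or more and the largest ratios; other names are marked or given as context. Some genes of the clusters and lists are not reported here. Members and lists were chosen with earlier results of these data known. Poisson counts were simulated for 18518 genes. Intervals excluded 1 for 4.08% of unchanged genes and, in the right direction, for 87.8% of genes changed 2-fold. Such counts hold no difference between cultures or clones, so these shares are not error rates for the real libraries.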

Additional observations from a re-analysis of the deposited data

How the results depend on the processing

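No paired analysis was possible because each genotype had 1 library, and for the same reason no library could be left out. Scaling, pseudocount, rounding, minimum count, unit and shared reads were varied, and no result changed sign among called values. Of 98 planned values for the sums and counts of calls, 90 stayed within the counting interval or within 1.5 times of the count. Leaving out genes with shared reads moved the log2 ratio of the HOXA sum from 0.86 to 0.49, of the HOXB sum from 0.31 to 0.41 and of the sum over paralogues 4 to 8 from 0.43 to 0.77. The HOXA sum without HOXA9 was 0.55 and the HOXB sum without HOXB9 was 0.22. Leaving out the HOXC cluster, an alternative chosen after seeing the data, kept the sums over paralogues 4 to 8 and 9 to 13 within their intervals. A minimum of 50 counts, where fewer genes were compared, left 5 genes called higher and 3 at least 1.5-fold higher; HOXC4, HOXC6, HOXC8 and HOXA7 were then not compared, so every HOXC call ended. From FPKM with a pseudocount of 0.1, where no interval was needed, 1 gene was at least 1.5-fold lower in place of 0. Of 119 values for single genes 116 stayed within their interval, and the other 3 were the FPKM values of HOXC4, HOXC6 and HOXC8 given above. With 1 to 4 wild-type counts, depth limits the size of the HOXC ratios.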

Other observations

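Chromatin regulators hold HOX clusters silent or active, and their counts stand beside the 15.4% of all genes compared that were higher and the 14.7% that were lower. Of 19 Polycomb genes, which keep HOX genes silent, 18 were compared, with 4 higher, 2 lower and 12 intervals that included 1, and a median log2 ratio of -0.027. Both counts were near those shares. PHF19, an accessory gene of the complex that writes the repressive histone mark, had 69 and 151 counts, 2.15-fold higher (1.62 to 2.92). BMI1 had a ratio of 1.31 (1.01 to 1.72), PHC2 1.23 (1.07 to 1.43) and PCGF2 0.788 (0.686 to 0.903). Of 11 trithorax and elongation genes, which keep HOX genes active, 0 were higher, 3 were lower and for 8 the interval held 1, with a median of -0.14. DOT1L, a histone methyltransferase linked to HOXA9 expression, had 747 and 576 counts and a ratio of 0.764 (0.683 to 0.852). PSIP1 had a ratio of 0.856 (0.806 to 0.908), KMT2B 0.867 (0.761 to 0.988) and DPY30 1.24 (0.965 to 1.61).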
